A study of Mus musculus with 9 samples.

Results

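Interferon-stimulated genes and the genes of the major histocompatibility complex (MHC) class I pathway were followed in fetal ovaries before and after transplantation into male mice. The set held 36 listed genes, and a gene was measured where an Affymetrix probe set, the group of short probes that reads a transcript, was annotated to it alone. By this rule, 34 of the 36 genes were measured, out of 18194 genes with such a probe set. Where a gene had several probe sets, the one with the highest mean over the 9 arrays was used, and 15 of the 34 genes had more than 1. Isg15, whose probe set was shared with a second gene, and Ifi44, which had none, were not analysed here.

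The study placed fetal ovaries of 13 days post coitum beneath the kidney capsule of XY nude hosts and asked how gene expression changed as the grafts became partially masculinized. Grafts were taken on days 4, 7 and 15 after transplantation with 1 array each and on days 10 and 20 with 2 arrays each, and all were set against the same 2 arrays of ungrafted ovaries, called day 0, so that the 5 comparisons share them. Arrays of 1 day are called first and second after their replicate number. All donors were wild-type XX embryos, of the ICR strain per the labels and of the C57BL/6 and ICR strains per the study's methods, which do not say which served for the arrays, and all came from mothers given busulfan, a drug that kills germ cells, so that the day 0 ovaries shared this treatment. The hosts were adult BALB/c nu/nu males, which lack a thymus and most T cells but keep macrophages, natural killer (NK) cells and B cells. The RNA of approximately 10 grafts was pooled for an array, and the litters and hosts behind the pool of each array were not traced here, so that a p-value here reflects the spread between pools alone.

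Interferons are secreted proteins that warn cells of infection or tissue damage. Type I interferons act through the Ifnar1 and Ifnar2 receptor and factors that include Stat2 and Irf9, which bind a promoter element called the interferon-stimulated response element (ISRE). Interferon gamma, made mainly by NK cells and T cells, acts through the receptor chains Ifngr1 and Ifngr2 and, in the nucleus, at the gamma-activated site (GAS). The induced genes block the spread of viruses and other pathogens, and raise the MHC class I molecules with which nearly every cell displays peptides of its own proteins to T cells and NK cells. Embryonic tissues usually carry little MHC class I.

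The promoters of the listed genes were searched for these 2 elements. The genes were listed as interferon-stimulated or of the MHC class I pathway, so that a share above that of all promoters is no independent result. Isg15 and Ifi44, which were not measured, are among the genes counted with the ISRE core. RefSeq promoters of mouse build GRCm38.p6, each running from 250 bases before to 50 bases after a start of transcription, were at hand for 28 of the 36 listed genes, with 33 promoters. The core of the ISRE, spelled GAAANNGAA and searched on both strands, stood in 17 of the 33 promoters, or 51.5%, against 8.56% of all 32851 promoters of the table. The GAS, spelled TTCNNNGAA and the same on both strands, stood in 6 of the 33, or 18.2%, against 8.30% of all promoters. Both stood in 2 of the members' promoters and neither in 12. A match is a description of the letters and does not show that a factor binds there.

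The 250 bases before the start are shown 5′ to 3′ along the gene for 4 members, with any ISRE core or GAS in capitals. Ifit1 is shown for its 3 copies of the ISRE core, Igtp because both elements stand side by side, Irf1 for its GAS alone, and Tap1 because these bases also hold the start of Psmb9, which runs the other way. The windows of Tap1 and Psmb9 overlapped by 275 bases, and neither element was found in them.
Ifit1, chr19:34640639-34640888 (+ strand): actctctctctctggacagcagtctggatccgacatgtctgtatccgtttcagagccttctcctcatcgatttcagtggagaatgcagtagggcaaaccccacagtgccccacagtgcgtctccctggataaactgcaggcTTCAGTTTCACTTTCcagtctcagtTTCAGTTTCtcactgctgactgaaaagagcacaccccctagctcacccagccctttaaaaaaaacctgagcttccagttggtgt
Igtp, chr11:58199306-58199555 (+ strand): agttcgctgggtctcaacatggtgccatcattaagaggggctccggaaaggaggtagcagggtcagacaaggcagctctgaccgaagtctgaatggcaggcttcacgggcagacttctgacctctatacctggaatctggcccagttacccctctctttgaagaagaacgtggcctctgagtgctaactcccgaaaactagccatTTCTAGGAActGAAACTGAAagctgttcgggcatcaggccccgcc
Irf1, chr11:53769764-53770013 (+ strand): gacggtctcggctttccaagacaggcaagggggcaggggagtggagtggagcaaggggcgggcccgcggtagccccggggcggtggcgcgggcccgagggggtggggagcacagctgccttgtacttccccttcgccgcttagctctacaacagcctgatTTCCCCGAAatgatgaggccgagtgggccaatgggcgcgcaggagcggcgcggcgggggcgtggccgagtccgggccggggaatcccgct
Tap1, chr17:34187306-34187555 (+ strand): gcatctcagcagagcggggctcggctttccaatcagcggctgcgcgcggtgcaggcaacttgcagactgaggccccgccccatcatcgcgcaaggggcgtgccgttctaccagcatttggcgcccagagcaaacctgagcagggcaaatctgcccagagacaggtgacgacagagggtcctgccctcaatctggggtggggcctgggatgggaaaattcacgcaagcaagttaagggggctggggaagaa

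Stretches of 40 bases around the ISRE core are shown for 10 members in which it stood before the start, with the core in capitals and written as it lies along the gene, so that a core on the opposite strand reads TTCNNTTTC. Longer runs of capitals hold overlapping copies. The first 8 belong to members called higher on day 20, and the last 2, Rsad2 and Bst2, to members called on no day, whose values are given further on.
Ifit3, chr19:34583412-34583451 (+ strand): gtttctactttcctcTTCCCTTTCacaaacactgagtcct
Ifih1, chr2:62646343-62646382 (- strand): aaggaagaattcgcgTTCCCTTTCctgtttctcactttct
Gbp2, chr3:142620590-142620629 (+ strand): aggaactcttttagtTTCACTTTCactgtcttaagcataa
Gbp3, chr3:142559991-142560030 (+ strand): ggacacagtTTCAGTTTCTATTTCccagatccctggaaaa
Irgm1, chr11:48871421-48871460 (- strand): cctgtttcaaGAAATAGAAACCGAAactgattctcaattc
B2m, chr2:122147533-122147572 (+ strand): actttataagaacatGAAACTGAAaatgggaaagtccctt
Cxcl9, chr5:92328230-92328269 (- strand): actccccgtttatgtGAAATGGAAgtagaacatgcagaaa
Cxcl10, chr5:92349078-92349117 (- strand): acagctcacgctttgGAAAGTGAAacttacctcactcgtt
Rsad2, chr12:26456547-26456586 (- strand): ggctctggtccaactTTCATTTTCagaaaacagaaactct
Bst2, chr8:71537572-71537611 (- strand): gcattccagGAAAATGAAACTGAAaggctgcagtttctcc

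In the grafts, the median of the members stood highest on day 7 post-transplantation, which had 1 array, lower on days 10 and 15, and high again on day 20. In the comparisons between graft days, given further on, no member passed the threshold described next. The deposited values are log2 intensities, on which a difference of 1 is a 2-fold change, and a call required a change of more than 2-fold and an adjusted p under 0.05 in limma's test over all 45101 probe sets. By this rule, 7 of the 34 members were called higher on day 4 against day 0, 25 on day 7, 13 on day 10, 6 on day 15 and 26 on day 20, and none was called lower on any of these days. At an unadjusted p under 0.05 in limma, 27 members differed from day 0 on day 4, 33 on day 7, 27 on day 10, 25 on day 15 and 29 on day 20, in either direction. The share of all genes at this looser threshold is not given here, nor for later counts at it, so that these counts lack a background. The shares of all genes that follow are by the rule of the calls. Of all 18194 genes, 1.21% were called higher on day 4, 1.87% on day 7, 3.87% on day 10, 2.84% on day 15 and 6.31% on day 20. The shares of all genes called lower were 0.236% on day 4, 0.583% on day 7, 2.01% on day 10, 1.25% on day 15 and 4.51% on day 20.

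The median change of the 34 members from day 0 was 1.74 on day 4, 3.36 on day 7, 1.29 on day 10, 1.16 on day 15 and 2.41 on day 20, where days 10 and 20 are the mean of the medians of their 2 arrays. Those medians were 1.21 and 1.37 on day 10, and 2.88 and 1.95 on day 20, and their SD within a day, pooled over both days, was 0.47. The median of all genes lay between -0.16 and -0.07 on the 7 graft arrays. In order of size, day 7 stood above day 20 by more than that SD, as did day 20 above day 4 in the mean of its arrays but not on the second of them alone, and the steps from day 4 to day 10 and from day 10 to day 15 were smaller than it. The first day 20 array stood apart in kidney genes, as given with the markers, and day 20 results that change without it are named. In bulk tissue, more cells of a type and more RNA per cell cannot be told apart.

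The order of the arrays was shared by most members. Of the 34, 26 had their highest value on the day 7 array, 7 on the first day 20 array and 1 on the second, whereas 4.41% of all genes were highest on the day 7 array and 13.9% on the first day 20 array. The day 7 value lay above those of day 4 and of both day 10 arrays for 33 members, against 15.5% of all genes, and Bst2 was the exception. For 28 members every graft array lay above both day 0 arrays, against 12.4% of all genes. Both day 20 arrays lay above both day 10 arrays for 31 members, against 16.6% of all genes.

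**Figure D1:**
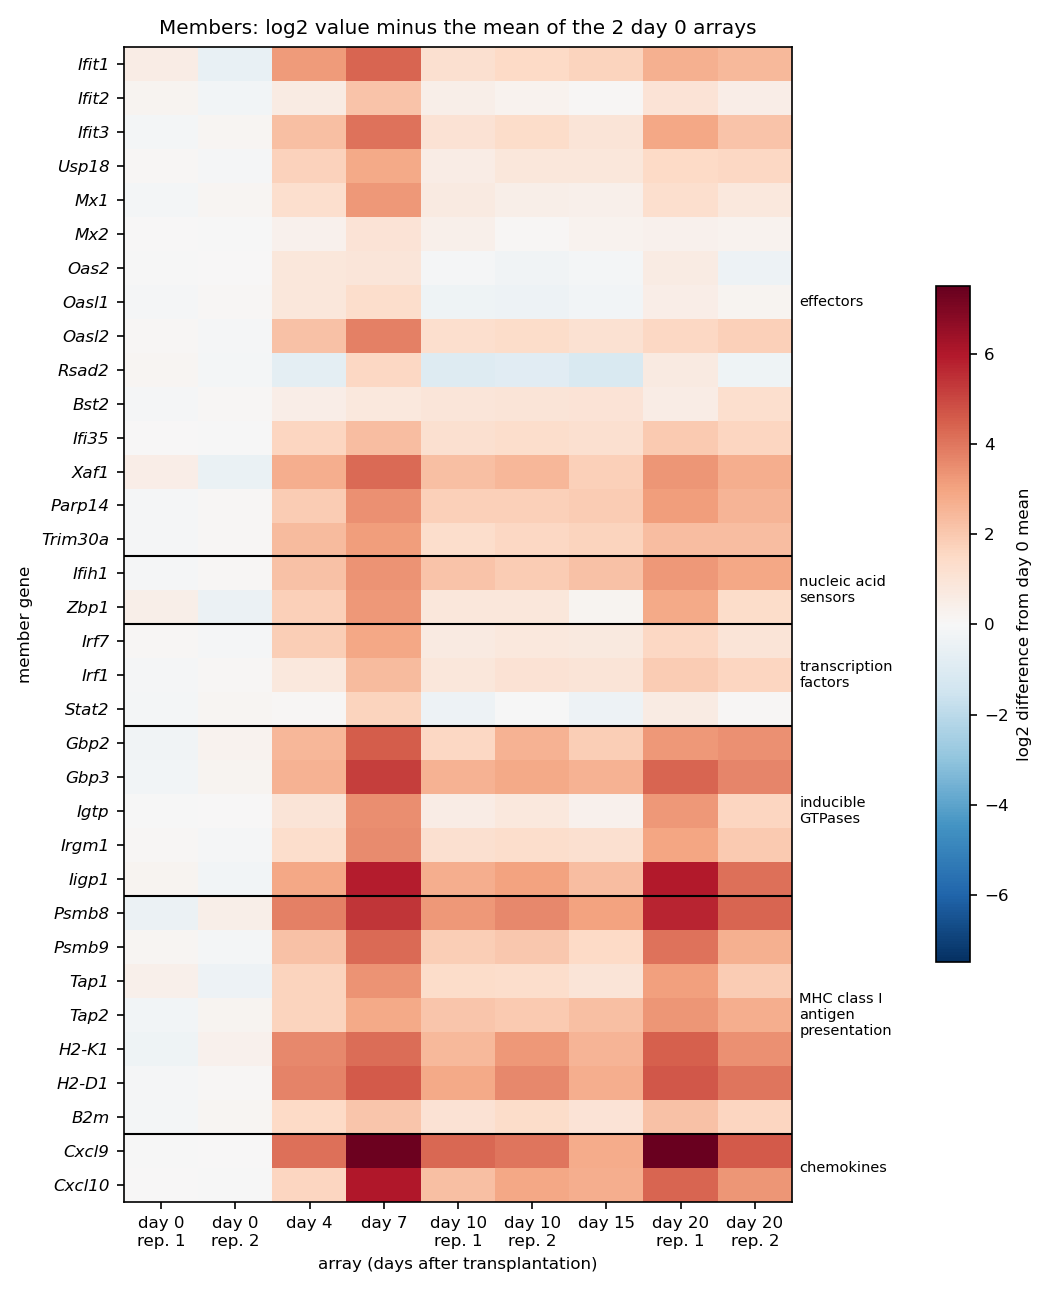
Each row is a member, grouped by role, and each column an array, from day 0 to day 20 post-transplantation, with colour for the log2 value minus the mean of the 2 day 0 arrays. The day 7 column is the reddest for 26 of the 34 members, with Cxcl10 at 5.99 and Gbp3 at 5.18, and the row of Rsad2 is blue on days 4, 10 and 15.

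The calls rest on few arrays. Days 4, 7 and 15 had 1 array each, whose spread was taken from the duplicate days. Leaving out any day 0 or day 10 array ended every call of a member on days 4, 10 and 15. It also ended nearly all calls on day 7 and a part of those on day 20. Such fits leave 1 array on a day, and fewer of all genes were called higher in them on every day too. The loss is thus not particular to the members. On day 20, 9 members were called with each of the 6 arrays of days 0, 10 and 20 left out in turn, namely Ifi35, Xaf1, Parp14, Trim30a, Ifih1, Gbp3, Psmb8, Tap2 and H2-D1. Raising all values under the 25th percentile of 4.82, taken here as near background, to that value left 1 member called on day 4, 5 on day 7, 2 on day 10, 1 on day 15 and 10 on day 20, although Cxcl9 was the only member with any value that low. Calls were lost over the whole table as well, where 91 genes instead of 341 were called higher on day 7 and 352 instead of 1148 on day 20. The cause of this loss was not tested.

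Among the 15 measured effectors, the proteins that act on pathogens and on the response itself, 4 were called higher on day 4, 10 on day 7, 5 on day 10, 2 on day 15 and 9 on day 20. Their median change was 2.85 on day 7, 0.94 on day 10 and 1.5 on day 20. Ifit1, which binds viral RNA that lacks the cap of host mRNA, had log2 values of 6.0 and 4.93 on day 0, 8.66 on day 4, 9.86 on day 7, 6.69 and 6.99 on day 10, 7.12 on day 15, and 8.13 and 7.88 on day 20. All 7 graft arrays lay above both day 0 arrays, the day 7 array was highest, and the day 10 arrays lay closest to day 0. Ifit1 was higher on day 7 than on day 0 by 4.39 ± 0.45 (SE; adjusted p = 0.0185), a 21-fold change, and higher on day 20 by 2.54 ± 0.37 (SE; adjusted p = 0.0161), and its day 10 change of 1.37 was not called (adjusted p = 0.11). Its relative Ifit3 changed by 4.06 on day 7, 1.24 on day 10 and 2.53 on day 20, and was called on days 7 and 20. Ifit1 was not called on day 20 once the first day 20 array was left out.

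The values of Ifit3 were 5.87 and 6.18 on day 0, 8.28 on day 4, 10.09 on day 7, 7.13 and 7.4 on day 10, 6.98 on day 15, and 8.95 and 8.16 on day 20. Every graft array lay above day 0, with day 7 highest and the arrays of days 10 and 15 lowest, as for Ifit1. Ifit2, of the same family, had values of 8.56 and 8.18 on day 0, 9.0 on day 4, 10.50 on day 7, 8.84 and 8.64 on day 10, 8.47 on day 15, and 9.41 and 8.90 on day 20. It was called on day 7 alone, with a change of 2.12 ± 0.30 (SE; adjusted p = 0.0365), and its changes were 0.37 on day 10 and 0.78 on day 20.

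Oasl2, of the family that senses double-stranded RNA, gave values of 7.38 and 7.24 on day 0, 9.53 on day 4, 11.09 on day 7, 8.55 and 8.68 on day 10, 8.44 on day 15, and 8.87 and 9.12 on day 20. The groups of day 0 and of every graft day did not overlap, and Oasl2 was called higher on days 4, 7, 10 and 20, with 3.78 ± 0.21 (SE; adjusted p = 0.00617) on day 7. Mx1, a GTPase that traps viral nucleoproteins, also stood highest on day 7 but closer to day 0 afterwards, with values of 4.92 and 5.17 on day 0, 6.30 on day 4, 8.31 on day 7, 5.71 and 5.49 on day 10, 5.43 on day 15, and 6.29 and 5.86 on day 20. Its day 7 array stood 3.27 above day 0 and its day 20 arrays 1.03 (adjusted p = 0.0426), and the second of them was 5.86, less than 1 above either day 0 array. Without the first day 20 array Mx1 was no longer called on day 20. Usp18, the enzyme that removes Isg15 from proteins and dampens signalling from Ifnar2, had values of 6.70 and 6.57 on day 0, 8.34 on day 4, 9.48 on day 7, 7.2 and 7.5 on day 10, 7.46 on day 15, and 8.11 and 8.16 on day 20. It was called higher on day 4 by 1.71, on day 7 by 2.85 and on day 20 by 1.5, and its 2 day 20 arrays lay close together.

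In 4 effectors, Trim30a, Parp14, Ifi35 and Xaf1, the day 10 change was 46.4% to 56.6% of the day 7 change on the log2 scale. Trim30a, a TRIM protein of mouse immune cells, was called on all 5 graft days, with values of 6.27 and 6.41 on day 0, 8.71 on day 4, 9.45 on day 7, 7.67 and 7.89 on day 10, 7.99 on day 15, and 8.65 and 8.67 on day 20. The day 7 array was highest, and the lowest graft array still lay above both day 0 arrays. Parp14, which attaches ADP-ribose to proteins, had values of 6.23 and 6.46 on day 0, 8.24 on day 4, 9.78 on day 7, 8.12 and 8.12 on day 10, 8.23 on day 15, and 9.47 and 8.90 on day 20. It changed by 3.43 on day 7, 1.77 on day 10, 1.88 on day 15 and 2.84 on day 20, all 4 called, and its second probe set by 1.41 on day 7, not called.

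Ifi35, a partner of Nmi in innate signalling, had values of 9.11 and 9.03 on day 0, 10.66 on day 4, 11.41 on day 7, 10.27 and 10.38 on day 10, 10.30 on day 15, and 11.02 and 10.71 on day 20. It was called on days 4, 7, 10 and 20, with 1.79 ± 0.17 (SE; adjusted p = 0.00564) on day 20. Xaf1, which promotes cell death, had values of 7.30 and 6.30 on day 0, 9.50 on day 4, 11.03 on day 7, 9.08 and 9.31 on day 10, 8.61 on day 15, and 10.09 and 9.51 on day 20. It was called on days 7, 10 and 20, and its day 20 change was 3.0 ± 0.38 (SE; adjusted p = 0.0111). The second probe set of Xaf1 differed in direction on day 7, with -0.96 and day 0 values of 4.57 and 8.72.

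The remaining 5 effectors were called on no day. Rsad2, or viperin, which makes a chain-terminating nucleotide, had values of 8.91 and 8.64 on day 0, 8.04 on day 4, 10.35 on day 7, 7.83 and 7.90 on day 10, 7.63 on day 15, and 9.45 and 8.48 on day 20. Day 7 was its highest array and the first day 20 array the next, while the arrays of days 4, 10 and 15 all lay below both day 0 arrays. Its change was 1.58 on day 7 (adjusted p = 0.169) and -0.91 on day 10 (adjusted p = 0.204), and its 3 probe sets all lay above day 0 on day 7 and below it on day 4. Its day 20 change of 0.19 was below 0 when the first day 20 array was left out.

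Oasl1, which in mice restrains translation of Irf7, had values of 7.14 and 7.27 on day 0, 8.03 on day 4, 8.51 on day 7, 6.90 and 6.81 on day 10, 7.01 on day 15, and 7.73 and 7.38 on day 20. It stood 1.31 above day 0 on day 7, and its mean on day 10 lay below that of day 0. Oas2, which makes the signal that activates RNase L, had values of 7.62 and 7.65 on day 0, 8.50 on day 4, 8.52 on day 7, 7.54 and 7.35 on day 10, 7.52 on day 15, and 8.26 and 7.28 on day 20. Its changes were 0.88 on day 7, -0.19 on day 10 and 0.13 on day 20, the last below 0 without the first day 20 array. Mx2, a relative of Mx1 in the cytoplasm, had values of 6.86 and 6.82 on day 0, 7.17 on day 4, 7.85 on day 7, 7.2 and 6.92 on day 10, 7.13 on day 15, and 7.16 and 7.09 on day 20. It changed by 1.01 on day 7 (adjusted p = 0.0952) and by 0.33 or less on the other days. Bst2, or tetherin, which holds budding viruses at the cell surface, followed another course, with values of 10.19 and 10.32 on day 0, 10.73 on day 4, 11.04 on day 7, 11.19 and 11.20 on day 10, 11.27 on day 15, and 10.84 and 11.51 on day 20. Its second day 20 array was highest, and its day 7 change of 0.78 lay below its changes of 0.94 on day 10 and 1.01 on day 15.

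The 2 sensors of foreign nucleic acid differed in spread. Ifih1, or Mda5, which detects long double-stranded RNA, had values of 6.60 and 6.77 on day 0, 8.89 on day 4, 10.04 on day 7, 8.85 and 8.58 on day 10, 8.89 on day 15, and 9.91 and 9.59 on day 20. No graft array overlapped with day 0, and Ifih1 was called on all 5 graft days, with 3.06 ± 0.20 (SE; adjusted p = 0.00231) on day 20. Zbp1, which detects nucleic acid in the left-handed Z form and can start necroptosis, had values of 5.91 and 5.01 on day 0, 7.24 on day 4, 8.70 on day 7, 6.30 and 6.34 on day 10, 5.64 on day 15, and 8.29 and 6.83 on day 20. Its day 0 arrays lay apart and the day 15 array lay between them, and Zbp1 was called on no day (adjusted p = 0.0942 on day 7 and 0.0673 on day 20).

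Of the 3 transcription factors, Irf7 and Irf1 were called on days 7 and 20 and Stat2 on no day. Irf7, which drives the genes of type I interferons, had values of 6.26 and 6.04 on day 0, 8.01 on day 4, 9.05 on day 7, 6.82 and 6.93 on day 10, 6.88 on day 15, and 7.69 and 7.10 on day 20. The day 7 array stood 2.90 above day 0 and the days 10 and 15 0.73 each. The day 20 change of Irf7, 1.25 ± 0.24 (SE; adjusted p = 0.0327), was no longer called without the first day 20 array. Irf1, which binds the ISRE and is itself induced by interferon gamma, had values of 8.95 and 9.09 on day 0, 9.82 on day 4, 11.39 on day 7, 9.88 and 10.09 on day 10, 9.99 on day 15, and 10.92 and 10.63 on day 20. Every graft array lay above day 0, and the change was 2.37 ± 0.22 (SE; adjusted p = 0.0149) on day 7 and 1.75 ± 0.18 (SE; adjusted p = 0.00655) on day 20. Stat2, a factor of the type I response, had values of 6.43 and 6.73 on day 0, 6.68 on day 4, 8.25 on day 7, 6.17 and 6.54 on day 10, 6.17 on day 15, and 7.17 and 6.69 on day 20. It was highest on day 7, 1.68 above day 0 (adjusted p = 0.0711), and of the other graft arrays the first of day 20 was the single one above both day 0 arrays.

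**Figure D2:**
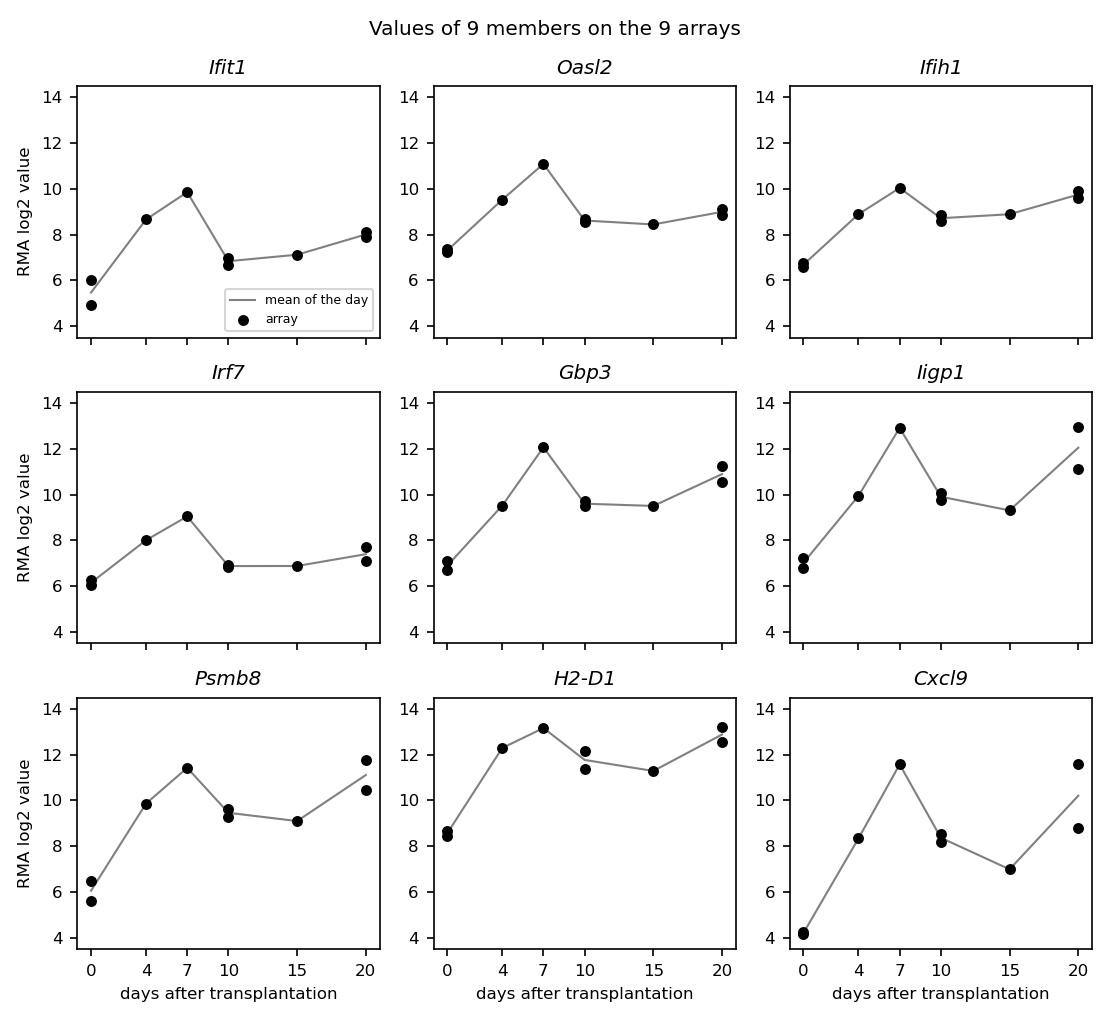
Points are the log2 values of single arrays of 9 members and the line joins the mean of each day, over days 0 to 20 post-transplantation. Ifit1, Oasl2, Ifih1, Irf7 and Gbp3 are highest on day 7, and Iigp1, Psmb8, H2-D1 and Cxcl9 on the first day 20 array, with H2-D1 at 13.22.

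The interferon-inducible GTPases, some of which gather on vacuoles that hold pathogens, had larger median changes than the effectors, with no test between the roles. Of these 5 genes, 1 was called higher on day 4, 4 on day 7, 2 on day 10, 1 on day 15 and 5 on day 20, and their median change was 4.51 on day 7, 2.07 on day 10 and 3.35 on day 20. Gbp3, a guanylate-binding protein, was called on all 5 days, with values of 6.69 and 7.09 on day 0, 9.52 on day 4, 12.07 on day 7, 9.50 and 9.71 on day 10, 9.51 on day 15, and 11.27 and 10.53 on day 20. The graft arrays lay clear of day 0 throughout. Gbp3 was 36.2-fold higher on day 7, a change of 5.18 ± 0.36 (SE; adjusted p = 0.00901), and 16.1-fold higher on day 20, a change of 4.01 ± 0.29 (SE; adjusted p = 0.00288). Gbp2, of the same family, was called on days 7, 10 and 20, with changes of 4.51, 2.07 and 3.35. Its values were 8.44 and 8.97 on day 0, 11.19 on day 4, 13.22 on day 7, 10.24 and 11.29 on day 10, 10.56 on day 15, and 11.98 and 12.13 on day 20. Its 2 day 20 arrays were nearly equal, and both its probe sets were called on days 7 and 20.

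Iigp1, an immunity-related GTPase best known for its action on Toxoplasma vacuoles, had values of 7.25 and 6.79 on day 0, 9.95 on day 4, 12.92 on day 7, 9.76 and 10.06 on day 10, 9.31 on day 15, and 12.98 and 11.13 on day 20. The day 7 array and the first day 20 array were nearly equal and the second day 20 array lay 1.85 below the first. Iigp1 was higher on day 7 by 5.90 ± 0.72 (SE; adjusted p = 0.0256) and on day 20 by 5.03 ± 0.59 (SE; adjusted p = 0.00929). Igtp and Irgm1, which are immunity-related GTPases too, also stood higher on the first day 20 array than on the second. Igtp had values of 8.64 and 8.73 on day 0, 9.67 on day 4, 12.19 on day 7, 9.24 and 9.47 on day 10, 9.02 on day 15, and 11.91 and 10.30 on day 20. It was called on day 20 alone, by 2.42 ± 0.5 (SE; adjusted p = 0.0424), and its larger day 7 change of 3.5 missed the threshold (adjusted p = 0.0676). Irgm1 had values of 8.21 and 8.02 on day 0, 9.45 on day 4, 11.64 on day 7, 9.29 and 9.45 on day 10, 9.29 on day 15, and 11.08 and 10.08 on day 20. It was called on days 7 and 20, with 3.53 and 2.47, and both calls were lost without any 1 array of days 0 and 10.

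The MHC class I pathway cuts proteins in the proteasome, carries the peptides into the endoplasmic reticulum and loads them onto class I molecules. Of its 7 members, 1 was called higher on day 4, 6 on day 7, 4 on day 10, 2 on day 15 and all 7 on day 20, with a median change of 4.21 on day 7, 2.03 on day 10 and 3.37 on day 20. Psmb8, the subunit that takes the place of Psmb5 in the immunoproteasome, had values of 5.62 and 6.49 on day 0, 9.86 on day 4, 11.43 on day 7, 9.29 and 9.63 on day 10, 9.10 on day 15, and 11.78 and 10.45 on day 20. The lowest graft array, that of day 15, lay 2.61 above the higher day 0 array. Psmb8 was 41.4-fold higher on day 7, a change of 5.37 ± 0.62 (SE; adjusted p = 0.022), and 33.4-fold higher on day 20, a change of 5.06 ± 0.5 (SE; adjusted p = 0.00595). The second probe set of Psmb8, with day 0 values under 4.82, changed by 1.48 on day 7 and was not called. Psmb9, which takes the place of Psmb6, had values of 7.11 and 6.86 on day 0, 9.19 on day 4, 11.25 on day 7, 8.83 and 9.03 on day 10, 8.46 on day 15, and 11.07 and 9.64 on day 20. It changed by 4.27 on day 7, 1.94 on day 10 and 3.37 on day 20, and was called on days 7 and 20.

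The standard subunits did not share this course. The change of Psmb5 was -0.35 on day 7 (adjusted p = 0.567) and likewise -0.35 on day 20 (adjusted p = 0.26). None of the 6 constitutive proteasome genes was called higher on any day in limma, against 1.21% to 6.31% of all genes. At these shares a list of 6 may well hold no call. At most 2 had an unadjusted p under 0.05 in limma, in either direction. Psmb7 was called lower on day 20, with a change of -1.98 ± 0.33 (SE; adjusted p = 0.0237), against 4.51% of all genes. Psmb10, the inducible subunit that takes the place of Psmb7, was called higher on days 7 and 20, with 2.41 and 1.75.

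Tap1 and Tap2, the paired chains of the peptide transporter, were both called higher on day 20, by 2.51 for Tap1 and 3.02 for Tap2. Tap2, with values of 6.20 and 6.57 on day 0, 8.08 on day 4, 9.25 on day 7, 8.49 and 8.35 on day 10, 8.61 on day 15, and 9.69 and 9.12 on day 20, was highest on the first day 20 array and was called on days 7, 10, 15 and 20. Tap1 had values of 6.93 and 6.18 on day 0, 8.26 on day 4, 9.93 on day 7, 7.96 and 7.86 on day 10, 7.5 on day 15, and 9.65 and 8.49 on day 20. Its day 7 change of 3.38 missed the threshold (adjusted p = 0.0518). Of its 4 probe sets, 1 changed by more than 2-fold on days 7 and 20, and the others stayed close to day 0.

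B2m, the light chain of class I molecules, was abundant in the ungrafted ovaries and higher in the grafts, with values of 12 and 12.29 on day 0, 13.67 on day 4, 14.23 on day 7, 13.24 and 13.50 on day 10, 13.14 on day 15, and 14.34 and 13.77 on day 20. All graft arrays lay above day 0, and the changes were 2.08 ± 0.30 (SE; adjusted p = 0.0406) on day 7 and 1.91 ± 0.25 (SE; adjusted p = 0.0122) on day 20, which its second probe set matched with 2.14 and 1.99. H2-K1 and H2-D1 are the classical class I heavy chains of the mouse. H2-K1 had values of 9.04 and 9.67 on day 0, 12.94 on day 4, 13.57 on day 7, 11.77 and 12.62 on day 10, 11.88 on day 15, and 13.83 and 12.80 on day 20, and H2-D1 of 8.46 and 8.67 on day 0, 12.29 on day 4, 13.17 on day 7, 11.38 and 12.17 on day 10, 11.29 on day 15, and 13.22 and 12.55 on day 20. On both, the first day 20 array was highest and day 7 next, and the second day 10 array lay above the first. H2-D1 was called on all 5 graft days, with 3.73 ± 0.42 (SE; adjusted p = 0.03) on day 4 and 4.32 ± 0.34 (SE; adjusted p = 0.00353) on day 20, and H2-K1 on days 7, 10 and 20, with 3.96 ± 0.46 (SE; adjusted p = 0.0092) on day 20.

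The probe sets of the class I heavy chains did not read alike. Of the 9 annotated to H2-D1, 7 were called higher on day 7 and 7 on day 20, and their changes on day 7 ran from -0.08 to 6.34. The 2 with the highest means began at 8.56 and 8.59 on average on day 0, whereas 1427651_x_at read 4.76 and 4.59 on day 0, 11.34 on day 4 and 10.97 on day 7. This probe set and 1425614_x_at and 1452544_x_at were higher on day 4 than on day 7, whereas the probe set with the highest mean, 1425545_x_at, was 12.29 on day 4 and 13.17 on day 7. The last probe set, 1451934_at, stayed between 3.82 and 4.49. All 4 probe sets of H2-K1 lay more than 2-fold above day 0 on days 7 and 20, and 2 of them were called on day 7. Class I genes are near copies of one another and differ between mouse strains, and the hosts, of the BALB/c strain, differed from the donors, whether ICR or C57BL/6, so that which gene, and whose, each of these probe sets read is uncertain and was not tested.

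**Figure D3:**
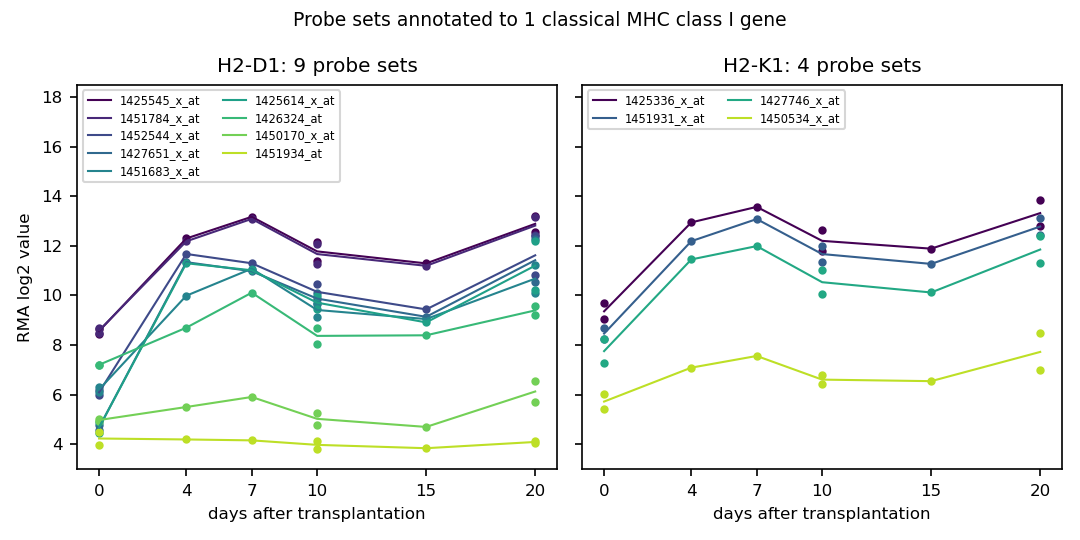
Log2 values of the 9 probe sets of H2-D1 and the 4 of H2-K1 on single arrays (points) and by day (lines). H2-D1 shows levels already of 11.34 and 11.30 on day 4 for 1427651_x_at and 1425614_x_at, 13.17 on day 7 for 1425545_x_at, and values between 3.82 and 4.49 for 1451934_at.

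The chemokines Cxcl9 and Cxcl10, which draw in T cells and NK cells through the receptor Cxcr3, had the largest day 7 changes of all members. Cxcl9 had values of 4.18 and 4.23 on day 0, 8.34 on day 4, 11.58 on day 7, 8.53 and 8.20 on day 10, 6.99 on day 15, and 11.60 and 8.81 on day 20. Both day 0 values lay under 4.82, so that its change is a lower bound. With these values raised to 4.82 it was at least 108-fold higher on day 7 and at least 41.9-fold higher on day 20. The adjusted p, 0.0365 on day 7 and 0.0152 on day 20, came from limma's fit of the values as deposited. Its second probe set changed by 1.78 on day 7 and was not called. The day 7 array and the first day 20 array were level, and the second day 20 array was 2.79 lower than the first. Cxcl10 had values of 5.19 and 5.17 on day 0, 6.78 on day 4, 11.17 on day 7, 7.43 and 8.08 on day 10, 7.91 on day 15, and 9.53 and 8.47 on day 20. It peaked on day 7 alone, 63.8-fold above day 0, a change of 5.99 ± 0.48 (SE; adjusted p = 0.0124), and was called on days 10 and 20 as well, with 2.57 and 3.82.

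Between graft days no member was called. On day 20 against day 10, 33 of the 34 members were higher, with a median difference of 1.05, and 22 had an unadjusted p under 0.05 in limma. Of all genes, 0.0055% were called higher in this comparison, by the rule of the calls and not by the unadjusted p. Without the second day 20 array, which leaves the first with its kidney signal, 9 members and 3.52% of all genes were called higher, and without the first array no member was. On day 10 against day 7, a comparison chosen after the values had been seen, 33 members were lower and the median difference was -1.99, with 32 members at an unadjusted p under 0.05 but none called. By the rule of the calls, 0.0% of all genes were called in this comparison. On day 10 against day 4 the median difference was -0.32, 9 members had an unadjusted p under 0.05 and none was called, again with 0.0% of all genes.

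The roles differed in how much of the day 7 change remained on day 10, as a description with no test. The day 10 change on the log2 scale was a median of 63.4% of the day 7 change for the MHC class I members, 49.7% for the chemokines, 45.8% for the GTPases, 43.5% for the sensors, 30.6% for the effectors and 25.1% for the transcription factors. On day 20 the medians were 93.9% for MHC class I, 78.1% for the sensors, 74.3% for the GTPases, 72.6% for the chemokines, 52.7% for the effectors and 43.0% for the transcription factors. Within each role the members spread widely, with MHC class I running from 40.1% for Tap1 to 71.1% for Tap2 on day 10, and the effectors from -57.6% for Rsad2 to 120% for Bst2.

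**Figure D4:**
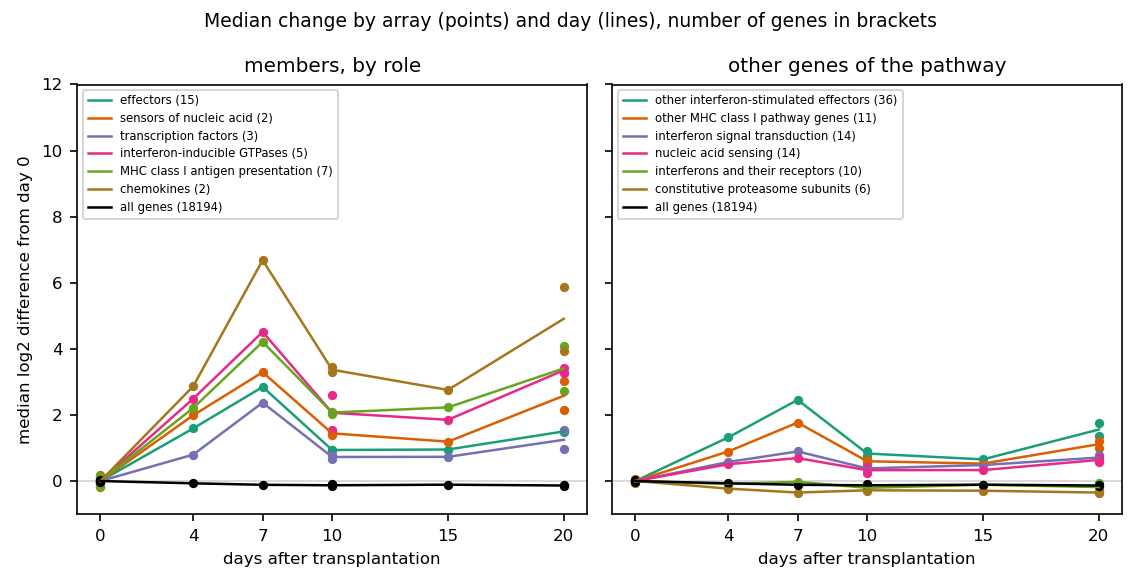
Median log2 difference from day 0 of the members by role (left) and of other genes of the pathway (right), by array (points) and day (lines), with all genes in black. All 6 roles are highest on day 7, at 2.37 for the transcription factors and 6.68 for the chemokines (6.38 with the day 0 values of Cxcl9 raised to 4.82), while all genes stay between -0.16 and 0.04.

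Other genes of the pathway were taken from lists, described here by counts. Of 10 measured genes for interferons and their receptors, none was called higher on days 4 and 7, against 1.21% and 1.87% of all genes, and 1 was called higher on each of days 10, 15 and 20, against 3.87%, 2.84% and 6.31% of all genes. Ifng, which encodes interferon gamma, had values of 3.62 and 4.05 on day 0, 3.43 on day 4, 6.20 on day 7, 3.88 and 3.94 on day 10, 3.71 on day 15, and 5.12 and 3.88 on day 20. The day 7 array and the first day 20 array were the only ones above 4.82, and its day 7 change was at least 1.38 with lower values raised to 4.82. In limma's fit of the values as deposited, the day 7 change of Ifng was not called (adjusted p = 0.113). Ifnb1, a type I interferon, lay between 4.36 and 5.07 on all arrays, near the 25th percentile, with a day 7 change of -0.29 (adjusted p = 0.681).

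Ifngr1 was called higher on days 10, 15 and 20, by 1.46 ± 0.15 (SE; adjusted p = 0.00673) on day 20, and Ifnar1 was called lower on day 20, with a change of -1.53 ± 0.21 (SE; adjusted p = 0.0144). Ifngr1 read 8.37 and 8.52 on day 0 and between 9.42 and 9.93 in the grafts, with no overlap. Its lowest graft array was that of day 7.

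Of 14 measured genes of interferon signal transduction, 1 was called higher on day 4, 4 on day 7, 5 on day 10, 1 on day 15 and 5 on day 20, and none lower. Irf8, a factor of the macrophage lineage that interferon gamma also induces, changed most, by 3.51 on day 7 and 2.89 ± 0.32 (SE; adjusted p = 0.00804) on day 20. Sp100, a nuclear body protein, changed by 1.94 on day 20, Nmi by 1.72 and the kinase Jak1 by 1.16, all 3 called. Irf9, the DNA-binding partner of Stat2, changed by 0.93 on day 7 (adjusted p = 0.124) and 0.21 on day 20. Of 14 nucleic acid sensing genes, 2 were called higher on day 4, 1 each on days 7, 10 and 15, and 4 on day 20, with Ifi204 at 1.87 or more, since 1 of its day 0 values lay under 4.82, Ddx60 at 2.14, Tlr3 at 1.93 and Tlr7 at 1.35 on day 20.

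Of 36 other interferon-stimulated effectors with a probe set, 6 were called higher on day 4, 17 on day 7, 10 on day 10, 7 on day 15 and 19 on day 20, and their median change was 2.46 on day 7 and 1.62 on day 20. The largest day 20 changes were those of the chemokine Ccl5, at 5.16, Ifi47, at 4.75, Ifi44l, at least 3.37 with its day 0 values raised to 4.82, and Gbp6, at 3.33. Ifi47, a GTPase related to Igtp, had values of 6.29 and 5.99 on day 0, 9.21 on day 4, 11.91 on day 7, 9.08 and 9.21 on day 10, 9.10 on day 15, and 11.34 and 10.45 on day 20, highest on day 7 like most members. Ifitm1 and Ifitm2, named after their values had been seen, were the only ones of these genes called lower, Ifitm1 on days 10, 15 and 20 and Ifitm2 on day 20, with day 20 changes of -2.6 and -1.41. Genes of this family are also expressed in germ cells and early embryonic tissue.

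Of 11 other MHC class I pathway genes, none was called on day 4, 5 were called higher on day 7, 3 on day 10, 1 on day 15 and 6 on day 20, and none lower. Nlrc5, the factor that switches on the class I promoters, had values of 4.16 and 4.08 on day 0, 6.74 on day 4, 9.26 on day 7, 6.79 and 6.81 on day 10, 6.35 on day 15, and 9.06 and 7.52 on day 20. Both day 0 values lay under 4.82, so that its change is a lower bound as for Cxcl9, at least 4.44 on day 7 with these values raised to 4.82. The adjusted p on day 7, 0.0219, came from limma's fit of the values as deposited. Every graft array lay above day 0, and Nlrc5 was called on days 7, 10 and 20. H2-M3, a nonclassical class I chain, changed by 2.66 on day 20, and Erap1, which trims peptides, by 1.77.

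Markers of immune cells and of the host moved on some of the same arrays. Beside the counts of calls below, 1.21% to 6.31% of all genes were called higher and 0.236% to 4.51% lower, lowest on day 4 and highest on day 20. The 15 macrophage markers had a median change of 3.32 on day 4, 2.84 on day 7, 1.78 and 2.04 on day 10, 1.44 on day 15, and 3.24 and 2.32 on day 20, with 7 called higher on day 4, 6 on day 7, 9 on day 10, 2 on day 15 and 13 on day 20. They were thus higher on day 4 than on day 7, whereas the members had 1.74 on day 4 and 3.36 on day 7. Lyz2, a macrophage gene, read 14.12 on day 4 and 13.72 on day 7, against 8.35 and 8.44 on day 0. The 3 Y-linked genes, which an XX graft lacks and the XY host carries, had a median change of 2.30 on day 4, 1.95 on day 7, 0.90 and 0.92 on day 10, 1.02 on day 15, and 2.94 and 1.43 on day 20. The part of such cells in the members' changes was not tested.

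T and NK cell markers changed less as a list, with a median of 0.39 on day 4, 0.58 on day 7, 0.39 and 0.17 on day 10, 0.05 on day 15, and 1.58 and 0.72 on day 20, and 2 of 11 were called higher on day 7, Gzma and Ncr1. Gzma, a granzyme of NK cells and cytotoxic T cells, had values of 5.39 and 5.03 on day 0, 6.59 on day 4, 9.89 on day 7, 7.14 and 7.23 on day 10, 6.67 on day 15, and 9.14 and 7.62 on day 20 and was called on days 7 and 20, with 4.68 ± 0.59 (SE; adjusted p = 0.0275) on day 7. Its highest array was that of day 7, as for most members. Other markers of NK and cytotoxic cells on the list, named after their values had been seen and called on no day, changed by 3.02 for Gzmb, 1.98 for Nkg7, 1.56 for Klrk1 and -0.01 for Prf1 on day 7. Ncr1, which marks NK cells, was 6.83 on day 7, against 4.65 and 4.90 on day 0. Cd3g, a part of the T cell receptor, read 5.31 on day 7 and 9.57 and 7.11 on day 20. The difference of Cd3g between the 2 day 20 arrays, 2.46, was the largest of the 11 markers, so that it does not stand for the list. On day 20, 3 of the 11 were called higher, and the second day 20 array lay above day 15 for 8 of them but not for the others. Other T cell markers of the list are not given singly here. None of the 8 dendritic cell markers and none of the 8 neutrophil markers was called on any day, and at an unadjusted p under 0.05 in limma at most 3 dendritic cell markers and 1 neutrophil marker differed from day 0. At the shares of all genes called, lists of 8 may well hold no call. Single arrays did differ, and 1 neutrophil marker stood 4.64 higher on the second day 20 array than on day 15. Of 8 B and plasma cell markers, 2 were called higher on each of the earlier graft days and 5 on day 20. The part of these cells in the results was not tested.

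The first day 20 array held a strong signal of kidney genes. The median change of 11 proximal tubule markers was 5.98 on it and -0.13 on the second, and on the other graft arrays it lay between -0.10 and 0.41. This median does not show each marker, and the paper lists Miox, 1 of the 11, among the genes raised from day 10 onward. On this array 29 of the 34 members were higher than on the second, with a median difference of 0.58, where the median of all genes was -0.12 and 40.1% of all genes were higher. Cxcl9 and Iigp1 differed most between the 2 arrays, by 2.79 and 1.85. On the second array, with no such kidney signal, the median change of the members from day 0 was 1.95. Of the 34 members, 32 stood above day 15 on it, against 51.4% of all genes. The day 7 array held no such signal either, with a proximal tubule median of -0.10. Of 12 fetal ovary somatic markers, 3 were called lower on day 10, 2 on day 15 and 7 on day 20. For 1 of the 12, every graft array lay above both day 0 arrays. On the first day 20 array the markers stood a median of 0.87 below the second, and 1 of the 12 stood above it. Gata4 read 7.53 and 8.82 on day 20, against 10.61 and 10.11 on day 0.

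**Figure D5:**
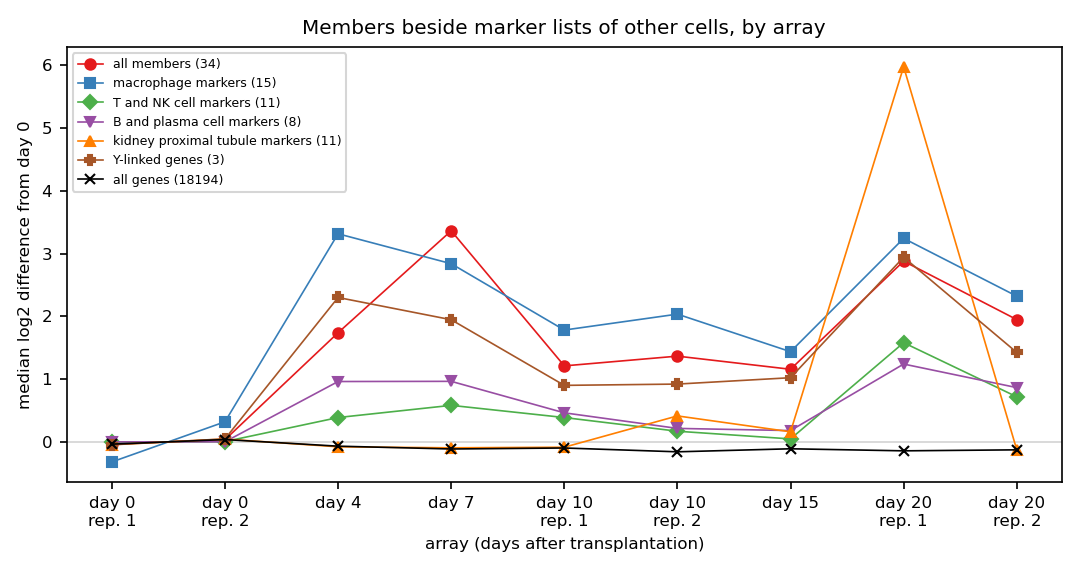
Median log2 difference from day 0 of the members and of marker lists on each array. The members peak on day 7 at 3.36, the macrophage markers stand at 3.32 on day 4 and 2.84 on day 7, and the proximal tubule markers stand at 5.98 on the first day 20 array and at 0.41 or less on the others.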

How the data were processed

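RNA of pooled XX ovaries or grafts was hybridised to 9 arrays of 1 channel. The deposited log2 values had been made by the authors with the robust multiarray algorithm (RMA), which corrects background, normalizes by quantiles and summarises each probe set. The labels name 2 labelling kits but not the arrays on which each was used. Array medians lay between 6.49 and 6.63.

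A mean per day was fitted to all 45101 probe sets with lmFit and eBayes of the limma package (version 3.58.1, under R 4.3.3), which left 3 residual degrees of freedom, and p-values were adjusted over all of them by Benjamini-Hochberg. The scripts were tested on simulated data. Genes came from the platform annotation, in which 34958 probe sets had 1 gene, 932 several and 9211 none. Promoters came from RefSeq. All members are named. Of the other lists, up to 4 called genes with the largest change on day 10 or 20 are named. Irf9, Ifnb1, Ifng, Ifnar1, Ifngr1, Nlrc5 and Psmb5 are named in any case, and up to 3 defining genes of a marker list. Ifitm1, Ifitm2, Gzmb, Nkg7, Klrk1 and Prf1 are named beyond this rule, after their values had been seen. The members and lists were chosen with earlier results of these data known. The alternatives were an eBayes trend, array weights, centring or renewed quantile normalization, filters on low values, other probe sets and folds, fits of the compared days alone, a replicate block, and leaving out each array.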

Additional observations from a re-analysis of the deposited data

How the results depend on the processing

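The members called higher on day 4 (7 as reported) numbered 16 with array quality weights, 14 with probe sets above the median only, 14 with 1 probe set per gene, and 1 with low values, those below the 25th percentile, set to that percentile. The corresponding counts on day 15 (6 as reported) were 10, 10, 10 and 1. On day 10 (13 as reported) they were 21 with array quality weights and 2 with low values raised, and raising low values also left 5 of 25 on day 7 and 10 of 26 on day 20. The number of all genes called higher moved too. On day 4 it was 221 in the main fit, 490 with array quality weights, 314 of 11650 with probe sets above the median only, 385 with 1 probe set per gene and 62 with low values raised. On day 15 these numbers were 517, 895, 670, 775 and 113. On day 10 the main fit gave 704, array quality weights 1081 and raised low values 177. Raised low values gave 91 against 341 on day 7 and 352 against 1148 on day 20. With the second probe set of each gene that had one, the median change was 2.85 on day 7 and 1.5 on day 20. Leaving out 1 array at a time gave 0 to 14 members called higher on day 4, 0 to 30 on day 7, 0 to 18 on day 10, 0 to 15 on day 15, 11 to 28 on day 20 and 0 to 9 on day 20 against day 10, and 0 to 1 member called lower on day 15. The 0 counts on days 4, 10 and 15 came from leaving out any array of day 0 or day 10, as did those of 2, 0, 0 and 0 on day 7, and the highest counts from leaving out an array of day 20. On day 20 the count was 11 without the first and 12 without the second array of day 0. A day 10 array enters the tests of the other days through the shared spread alone. The number of all genes called higher against day 0 also fell on every day without any array of day 0 or day 10. It rose on every day without either array of day 20. Directions turned with the second probe set for Xaf1 (-0.96 on day 7, -1.77 on day 10 and -0.60 on day 20), Tap1 (-0.075 on day 7, -0.081 on day 10 and -0.11 on day 20) and Zbp1 (-0.060 on day 10). On day 20 the change of Oas2 ran from -0.36 to 0.62 and that of Rsad2 from -0.30 to 0.67 as arrays were left out, with the lowest values without the first day 20 array. The cause of these changes was not tested. The replicate numbers share no animal or batch in the labels, and the differences between the arrays numbered 1 and 2 correlated at -0.16, 0.15 and -0.13 between pairs of days. With the replicate number as a block, 10 members were called higher on day 10 and 25 on day 20, against 559 and 1083 of all 18194 genes. In that fit no member was called on day 20 against day 10, nor was any other gene.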
